A study of Danio rerio with 2 samples.

Results

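Expression was compared between control and phf14 morpholino embryos for tbxta, sebox, gsc, hhex, dkk1b and fscn1a, a set of mesendoderm and dorsal organizer genes chosen by gene symbol. All 6 are present among the 4591 genes listed in each of the deposited tables. The embryos were whole Tuebingen zebrafish, collected at 4.7 h after fertilization, when the blastula is spreading over the yolk and gastrulation has not begun. Embryos of one group had received 5 ng of a standard morpholino at the 1-cell stage, and those of the other 5 ng of a phf14 morpholino at the same stage. Morpholinos are antisense oligomers that bind 1 chosen RNA and keep it from being translated or spliced. Both groups therefore share the injection, the dose, the strain and the age, and no uninjected group was analysed here. Each group is 1 library of whole embryos, so no spread between embryos or clutches can be given, and no test or p-value is possible. The number of embryos behind each library is a detail not given in the sources used here.

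Mesendoderm is the tissue at the blastula margin that forms mesoderm and endoderm. It is induced by Nodal ligands, which signal through activin-type receptors and Smad proteins to switch on transcription factor genes in the embryo's own, newly active genome. At the dorsal margin, Nodal and maternal Wnt signals together set up the organizer, a group of cells that secretes inhibitors of BMP and Wnt and patterns the body axis. The protein PHF14 recognises the tail of histone H3 through a PZP domain, and the study asks what it contributes to activation of the zygotic genome.

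The 6 genes differed unequally between the libraries. Values of tbxta, sebox and hhex were 29.3% to 36.9% lower in the phf14 morpholino library, whereas those of gsc, dkk1b and fscn1a lay within 13.1% of the standard morpholino library. All values below are the authors' deposited expression values, whose scale is not stated, so levels are not compared between genes. A log2 ratio is the log2 of the value plus 1 in the phf14 morpholino library minus the same in the standard one. It was computed for the 3524 genes whose 2 values average at least 1, which include all 6 genes. In whole embryos, fewer cells of a type and less RNA per cell cannot be told apart.

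The gene tbxta (ENSDARG00000101576) encodes the zebrafish Brachyury protein, a T-box transcription factor of the whole blastula margin and later of the notochord and tail. Its value was 148.76 with the standard morpholino and 102.55 with the phf14 morpholino. The phf14 morpholino library was thus lower by 31.1%, with a log2 ratio of -0.53. Only 134 of the 3524 genes, or 3.80%, had a lower log2 ratio.

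The gene sebox (ENSDARG00000042526) encodes a paired-like homeobox transcription factor that Nodal signalling induces in the marginal mesendoderm. It was at 12.99 with the standard morpholino and 8.20 with the phf14 morpholino. Of the 6 genes it showed the widest relative difference, 36.9% lower with a log2 ratio of -0.60, and 87 genes (2.47%) had a lower log2 ratio.

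Among the organizer transcription factors, gsc (ENSDARG00000059073) encodes Goosecoid, a homeodomain repressor of the dorsal margin and prechordal plate. It was at 37.72 with the standard morpholino and 42.66 with the phf14 morpholino, 13.1% higher, with a log2 ratio of 0.17. This is near the middle of all genes, since 57.6% of them had a lower log2 ratio and the median gene was at 0.11. The gene hhex, listed without an Ensembl identifier, encodes a homeodomain repressor of the dorsal margin, the yolk syncytial layer and the anterior endoderm. It was at 5.83 with the standard morpholino and 4.12 with the phf14 morpholino. The phf14 morpholino library was lower by 29.3%, with a log2 ratio of -0.42 and 240 genes (6.81%) below it. At such low deposited values the pseudocount matters: the log2 ratio of hhex was -0.49 with a pseudocount of 0.1 and -0.25 with a pseudocount of 5.

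The gene dkk1b (ENSDARG00000045219) encodes a secreted Wnt inhibitor that binds the Wnt co-receptors Lrp5 and Lrp6 and favours head formation. Its values were 22.33 and 22.82, a difference of 2.19% in favour of the phf14 morpholino library and a log2 ratio of 0.03. The gene fscn1a (ENSDARG00000059680) encodes fascin, which bundles actin filaments in the thin protrusions of migrating cells, including zebrafish mesendoderm. Its values were 294.46 and 281.06, lower in the phf14 morpholino library by 4.55%, with a log2 ratio of -0.07. Of all genes, 40.8% had a lower log2 ratio than dkk1b and 30.5% a lower one than fscn1a. The direction of these last genes depended on the scaling. Centring on the median gene put dkk1b at -0.08, and scaling both libraries to equal totals of the listed genes put fscn1a at 0.02.

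**Figure D1:**
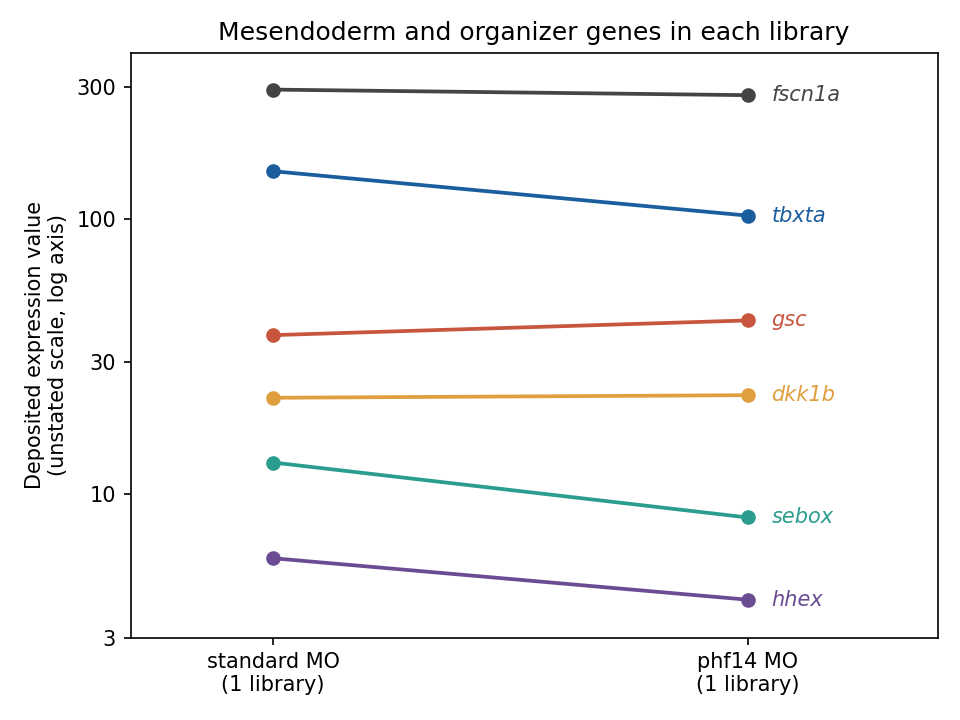
Deposited expression value (unstated scale, log axis) of each of the 6 genes in the standard and the phf14 morpholino (MO) library, 1 library per group. Lines join the values of 1 gene: those of tbxta, sebox and hhex slope down by 29.3% to 36.9%, whereas those of gsc, dkk1b and fscn1a change by at most 13.1%.

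As a description of these libraries, a gene was called lower where its value plus 1 was at least 20% lower, and higher where it was at least 25% higher, in the phf14 morpholino library. These limits are the same fold in either direction. Of all genes tested, 11% were called lower and 24.2% higher, as against 18.5% and 13.8% after centring on the median gene. These shares were 7.66% and 32.5% with equal totals, and 19.3% and 13.3% with a trimmed mean factor. They were 5.22% and 7.78% with a pseudocount of 5, and 13.2% and 23.8% with a mean of at least 5. Of the 6 genes, 3 were called lower (tbxta, sebox and hhex), 0 were called higher and 3 lay between the limits. The lower calls numbered 2 with a pseudocount of 5 (5.22% of all genes), where hhex was at -0.25. They also numbered 2 with a mean of at least 5 (13.2% of all genes), which hhex does not reach. With a threshold of 1.1-fold, the same 3 were lower (24.3% of all genes) and gsc was higher (46.3% of all genes). With 1.5-fold, sebox was still lower, as were 2.84% of all genes, and 0 of the 6 were higher, as against 4.94% of all genes. None of the 6 genes passed 2-fold, as against 0.482% of all genes on the lower and 0.341% on the higher side. The median log2 ratio of the 6 genes was -0.24 beside 0.11 over all genes, and 5 of the 6 lay below the median gene, gsc being the exception. Since each condition is a single value, the likeness of other genes to these 6 can only be counted. Between 48 (sebox) and 429 (gsc) other genes lay within 0.05 log2 units of a gene of the set.

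**Figure D2:**
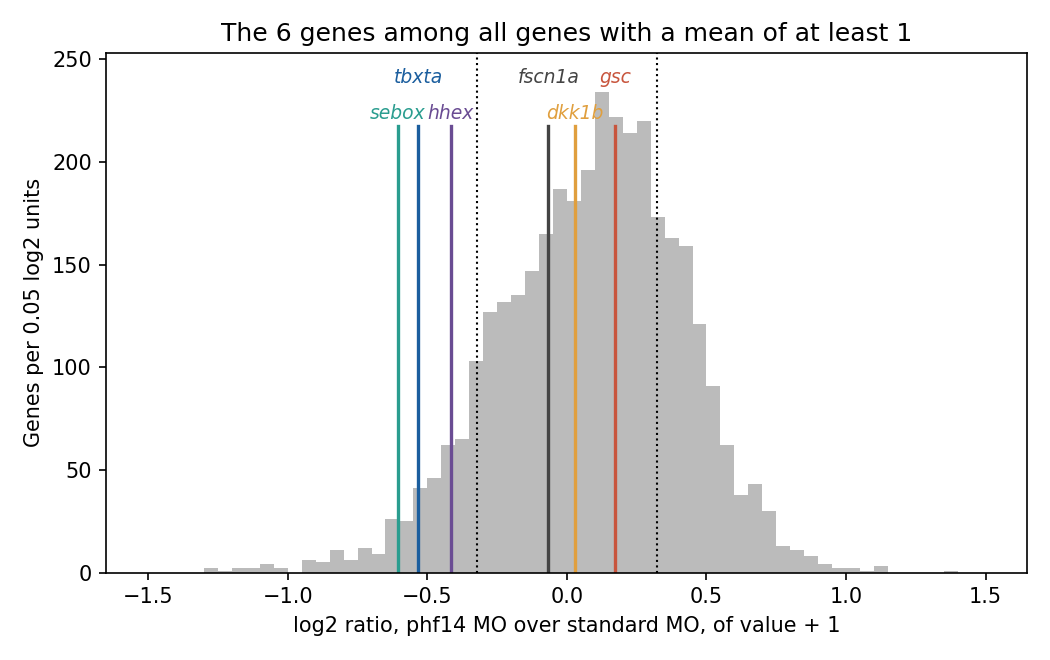
Histogram of the log2 ratio (x axis, phf14 over standard morpholino library) of the 3524 genes, with the number of genes per 0.05 log2 units on the y axis and 9 genes beyond 1.5 log2 units not drawn. Coloured lines mark the 6 genes and dotted lines the limits of the calls: sebox (-0.60), tbxta (-0.53) and hhex (-0.42) stand in the lower tail, whereas fscn1a (-0.07), dkk1b (0.03) and gsc (0.17) stand in the body of the distribution.

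The ratio between the libraries depended on the deposited value, so each gene was also set beside the genes whose mean value was within 1.5-fold of its own. The genes near tbxta numbered 71, with a median log2 ratio of -0.21 and an SD of 0.21. tbxta lay 0.32 below that median, and 3 of the 71 were lower. The genes near fscn1a numbered 28, with a median of -0.14, and fscn1a lay 0.08 above it. Genes with values like those of tbxta and fscn1a were thus on balance lower in the phf14 morpholino library, and tbxta was lower than most of its neighbours.

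For sebox and hhex the genes of like value were on balance higher in the phf14 morpholino library. The 670 genes near sebox had a median of 0.13, which sebox undercut by 0.73, and 18 of them (2.69%) were lower. The 885 genes near hhex had a median of 0.18, which hhex undercut by 0.60, and 62 of them (7.01%) were lower. The genes near gsc numbered 203 with a median of -0.11, and 71.9% of them had a lower log2 ratio than gsc. The 392 genes near dkk1b had a median of 0.03, the same as dkk1b itself. The SD over these genes of like value was between 0.21 and 0.36 for the 6 genes. It includes true differences between genes and is not an error of measurement.

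**Figure D3:**
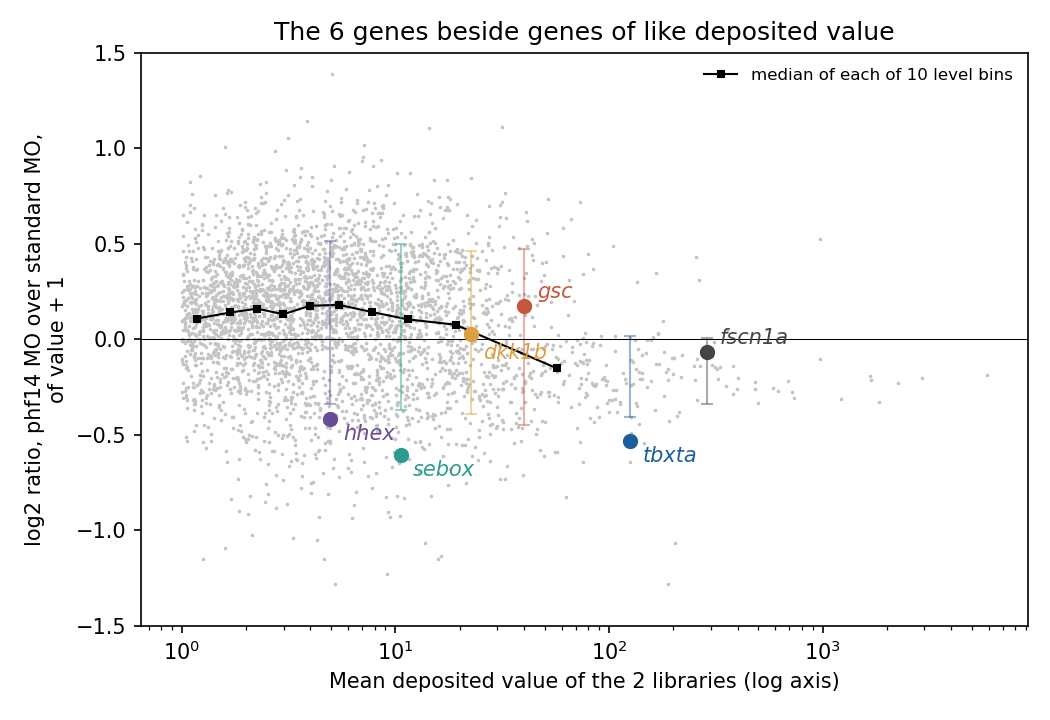
log2 ratio against the mean deposited value of the 2 libraries (log axis) for the 3524 genes (grey, 9 beyond 1.5 log2 units not drawn) and the 6 genes (coloured). Black squares are medians of 10 equal bins of level, and each coloured bar runs from the 10th to the 90th percentile of genes within 1.5-fold of that gene's mean: tbxta, sebox and hhex lie below their bars, and gsc, dkk1b and fscn1a inside them.

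A ratio of values within a library does not depend on how the libraries were scaled to each other. The value of tbxta divided by that of gsc was 3.94 for the standard and 2.40 for the phf14 morpholino library, a change of -0.71 log2 units. The same quotient with dkk1b changed from 6.66 to 4.49 (-0.57 log2 units) and with fscn1a from 0.505 to 0.365 (-0.47 log2 units). With the other genes called lower it changed little, from 11.5 to 12.5 with sebox and from 25.5 to 24.9 with hhex. The value of sebox divided by that of hhex went from 2.23 to 1.99 (-0.16 log2 units). Relative to tbxta, sebox and hhex, the genes gsc, dkk1b and fscn1a were higher in the phf14 morpholino library. Within the latter group gsc divided by fscn1a went from 0.128 to 0.152 (0.24 log2 units). These quotients compare changes, not transcript amounts, between genes. The genes were grouped here by their own ratios between the libraries, so the quotients restate those ratios and are no further support.

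The measured Nodal pathway genes, which include targets of the pathway, showed no common direction. Of the 10 that passed the filter, out of 45 on the list, 1 was called lower and 2 higher, beside 11% and 24.2% of all genes. Centring turned this split to 2 and 1 (18.5% and 13.8% of all genes), and equal totals to 0 and 3 (7.66% and 32.5%). Their median log2 ratio was 0.05, but -0.06 after centring on the median gene and -0.09 with a trimmed mean factor. The Nodal ligand gene ndr2 was at 22.67 with the standard morpholino and 20.02 with the phf14 morpholino (log2 ratio -0.17). The Nodal inhibitor genes lft1 and lft2, themselves Nodal targets, had log2 ratios of -0.11 and -0.12. The signal transducer gene smad2 was at 25.07 and 32.94 (0.38), and the T-box activator gene eomesa, whose transcript the oocyte also supplies, at 19.34 and 22.38 (0.20). The gene called lower was skia, which encodes a co-repressor of Smad proteins, at 9.37 and 6.86 (-0.40). At the other end stood lnx2b, a ubiquitin ligase gene, at 16.71 and 26.82 (0.65).

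Of 69 genes on the mesendoderm list, 33 passed the filter. Beside tbxta and sebox, these were 31 further genes. Of these 31, 17 were called lower and 1 higher, beside 11% and 24.2% of all genes. A log2 ratio below 0 was seen in 29 of them, as in 37.2% of all genes. The list was written with earlier results of these data known, so these counts describe it and are no independent support. The median of the 31 genes was -0.33, with tbxta and sebox on its lower side. The lowest were the hairy-related repressor genes of the segmentation clock, her7 at 13.17 and 5.05 (-1.23) and her1 at 8.59 and 4.01 (-0.94). Next among the genes named by rule came pcdh8, a protocadherin gene of paraxial mesoderm, at 13.32 and 7.12 (-0.82). At the other end were the FGF ligand genes fgf17 (-0.03) and fgf3 (-0.02) and the chemokine gene cxcl12a (0.04, below 0 after centring). The 1 gene called higher was fn1a, a fibronectin gene with low values of 1.58 and 3.39, which dropped out with a mean of at least 5.

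A further 4 genes of the mesendoderm list with a known role in endoderm were picked after their values had been seen, so they stand for no group. The GATA factor genes gata5 and gata6 were at 42.57 and 31.17 (-0.44) and at 82.29 and 59.45 (-0.46). The endoderm determinant sox32 was at 38.30 and 30.31 (-0.33), and mixl1, a Mix-type homeobox gene induced by Nodal, at 105.49 and 89.26 (-0.24). The first 3 were called lower and mixl1 was not. The GATA genes are also active in the yolk syncytial layer, so the tissue behind their values cannot be told apart here.

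Organizer and axial genes were also on balance lower, with fewer past the limit. Neither this list nor the mesendoderm list was matched for deposited value. Over all genes, the 353 with means of 27.91 or more had a median log2 ratio of -0.15. Those 353 include ism1, foxd5, foxa3, chrd, lft1, lft2, gadd45ba and bambia of the organizer list. Beside tbxta and foxa3, the mesendoderm list has gata5, gata6, dusp4, sox32, tbx16, osr1, fgf8a, wnt11, mixl1, aplnra, fgf17 and cxcl12a among them. Of 67 genes on the organizer list, 23 passed the filter. Beside gsc, hhex, dkk1b and fscn1a, these were 19 genes, with a median of -0.16. Of these 19, 4 were called lower and 1 higher, beside 11% and 24.2% of all genes. A log2 ratio below 0 was seen in 17 of the 19, as in 37.2% of all genes. Their split changed with the scaling. With gsc, hhex, dkk1b and fscn1a counted in, 5 were called lower and 1 higher as deposited, as against 9 and 1 after centring and 4 and 2 with equal totals. The shares of all genes called lower and higher also changed, to 18.5% and 13.8% after centring and 7.66% and 32.5% with equal totals. The genes foxa2 and lhx1a, transcription factor genes of axial mesoderm, were at 8.44 and 6.02 (-0.43) and at 24.41 and 18.08 (-0.41). The secreted protein gene ism1 was at 33.70 and 26.15 (-0.35). The BMP antagonist gene chrd, named for its role after its values had been seen, was at 62.19 and 57.01 (-0.12). Closest to level among those named by rule were tob1b (-0.03), an antiproliferative factor gene, and bambia (-0.05), which encodes a pseudoreceptor of the TGF-beta family. The anterior homeobox gene otx1 was higher, at 11.43 and 17.35 (0.56).

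The mesendoderm and organizer lists, which also share genes with other lists, overlap in foxa2, foxa3 and lhx1a. Without these 3 and without the 6 genes, the mesendoderm list had a median log2 ratio of -0.33 over 28 genes, with 15 called lower and 1 higher. The organizer list had -0.12 over 16 genes, with 2 called lower and 1 higher. Of all genes, 11% were called lower and 24.2% higher, so the lower calls of these 16 organizer genes were near the share of all genes. Of the 3 shared genes left out, 2 were called lower. With them, 4 of the 19 organizer genes that passed the filter, the 6 genes aside, were called lower. The difference between the lists was not tested, since each condition is 1 library.

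Few relatives of the 6 genes were listed. For comparison, 11% of all genes were called lower and 24.2% higher, or 18.5% and 13.8% after centring. Of 25 T-box genes on the list, 4 passed the filter. tbx16, which acts with tbxta in mesoderm, was at 434.96 and 363.53 (-0.26), whereas eomesa was higher, at 19.34 and 22.38 (0.20, between the limits). The remaining one, tbx2b, had low values of 2.29 and 1.37 (-0.47). With tbxta counted, 2 of these 4 were called lower and 0 higher, with a median of -0.37. Of the paired-like homeobox genes, 8 of 38 passed, with 1 called lower (sebox) and 1 higher (otx1), or 5 and 1 after centring. Among the others of that class were mxtx1 (-0.27) and otx2a (-0.23). They lay between sebox at -0.60 and gsc at 0.17.

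The other 5 measured genes of the Wnt antagonist and Dkk partner list all had log2 ratios below 0. The secreted inhibitor genes sostdc1a, at 13.70 and 9.23 (-0.52), and notum1a, at 40.40 and 28.92 (-0.47), were called lower, whereas frzb, a decoy receptor gene with low values, was at 2.92 and 2.87 (-0.02). The Dkk receptor gene lrp6 was at 21.16 and 20.36 (-0.05). Of the 6 genes on that list that passed the filter, dkk1b included, 2 were called lower and 0 higher. The shares of all genes were 11% and 24.2%, and the median of that list was -0.16. Of 10 actin bundling and protrusion genes, fscn1a included, 2 were called lower and 0 higher, with a median of -0.18, beside 11% and 24.2% of all genes. The lower calls numbered 4 after centring, 5 with the trimmed mean factor and 0 with equal totals or a pseudocount of 5. Of all genes, 18.5%, 19.3%, 7.66% and 5.22% were called lower under these settings, in that order. The called ones were the formin genes fmnl1a (-0.40) and fmnl2b (-0.38), and the profilin gene pfn2 was at 173.78 and 185.69 (0.10, below 0 after centring).

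**Figure D4:**
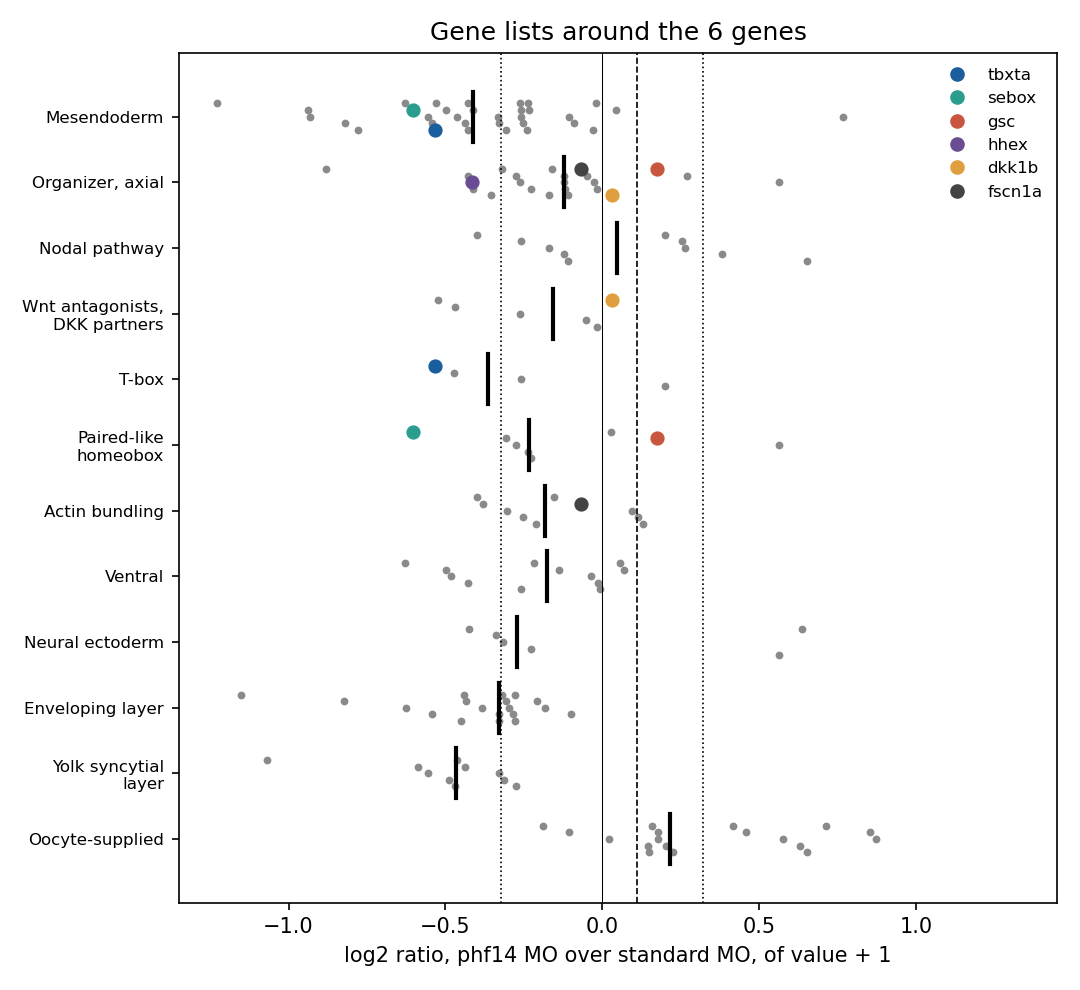
log2 ratio (x axis, phf14 over standard morpholino library) of each gene that passed the filter (dots) in 12 gene lists (rows), with the 6 genes in colour, a black bar at each list's median, a dashed line at the median of all genes (0.11) and dotted lines at the limits of the calls. The mesendoderm median stands at -0.41 and the organizer median at -0.12 with the 6 genes included.

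Markers of other tissues of the embryo also differed between the libraries. Over all genes, 11% were called lower and 24.2% higher, with a median log2 ratio of 0.11. The shares of all genes under other settings are given above. Of 19 enveloping layer genes that passed the filter, 10 were called lower and 0 higher, with a median of -0.33. The lower calls numbered 16 after centring, 18 with the trimmed mean factor and 6 with a pseudocount of 5. Over all 20 such genes listed, the summed value in the phf14 morpholino library was 0.814 times that in the standard one. Of 10 yolk syncytial layer genes 8 were called lower and 0 higher (median -0.47). Among the 8 were gata5 and gata6, which also stand in the mesendoderm list. The summed value of the 12 yolk syncytial layer genes listed was 0.780 times the standard one. Neither of these lists was matched for deposited value. Over all genes, the 353 with means of 27.91 or more had a median log2 ratio of -0.15. Those 353 include anxa1a, lye, krt92 and cldne of the enveloping layer list. They also include hnf4a, apoc1, apoeb and mxtx1 of the yolk syncytial layer list. Of the 71 genes near tbxta in value, 25.4% were called lower and 4.23% higher. Of 12 ventral genes 4 were called lower and 0 higher (median -0.18). This count was 1 with a pseudocount of 5 or a mean of at least 5, and the median ran from -0.32 to -0.09 over the alternatives. Of the 4 ventral genes called lower, eve1 (-0.63), cdx4 (-0.50) and tll1 (-0.43) also stand in the mesendoderm list. Of 6 neural ectoderm genes 2 were called lower, among them sox3 at 218.67 and 162.49 (-0.43). Another 2 were called higher, among them otx1, also in the organizer list, at 11.43 and 17.35 (0.56). The log2 ratios of the neural list ran from -0.43 to 0.64 (median -0.27). Its lower and higher calls were 4 and 2 after centring and 1 and 2 with equal totals. Oocyte-supplied transcripts lay on balance in the other direction, with 8 of 18 called higher and 0 lower (median 0.22). Over all genes 24.2% were called higher, and bins of genes with means of 4.69 to 14.345 had medians of 0.10 to 0.18. After centring, the oocyte-supplied transcripts had a median of 0.11. With the trimmed mean factor they had a median of 0.09, with 7 called higher and 1 lower. Their summed value was 0.924 times the standard one, and the most abundant of them, ybx1, was at 1769.87 and 1551.33. None of the listed genes of these 5 tissue lists was at 0 in either library. Their part in the values of tbxta, sebox and hhex was not tested. The phf14 transcript was not analysed here, so the knockdown itself is unchecked.

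**Figure D5:**
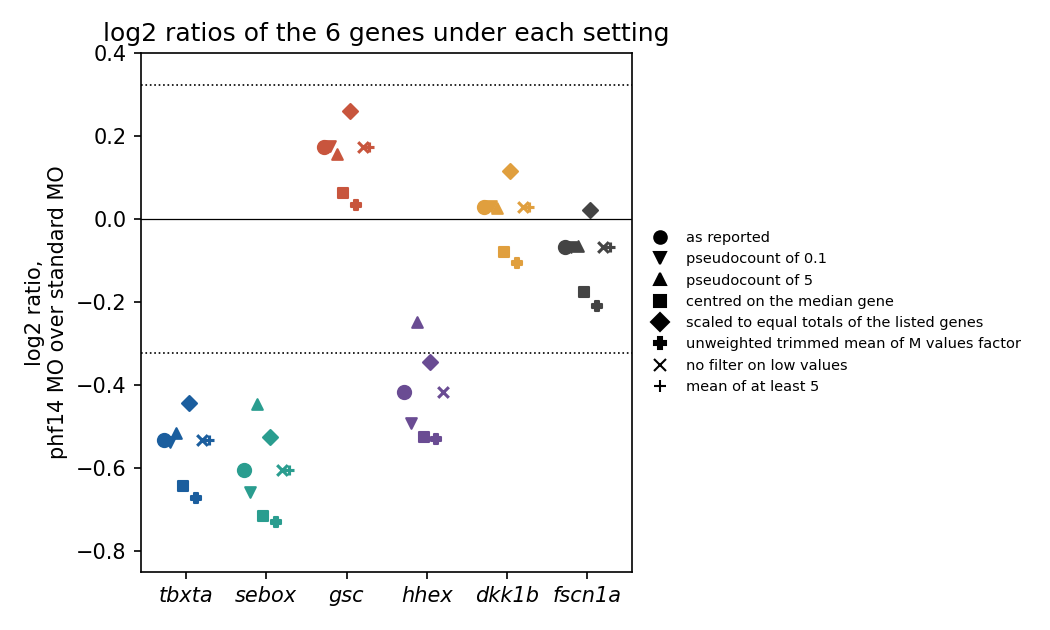
log2 ratio (y axis) of each of the 6 genes as reported (circles) and under 7 alternative settings (other symbols), with dotted lines at the limits of the calls (20% lower and 25% higher). The points of tbxta and sebox lie below the lower dotted line in every setting drawn, hhex lies above it with a pseudocount of 5 and has no value with a mean of at least 5, and dkk1b and fscn1a have points on both sides of 0.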

How the data were processed

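Per the labels, mRNA of whole embryos was sequenced from libraries made with a TruSeq kit from 1 ug of total RNA. The authors deposited 1 table per library with 1 expression signal per gene, named only as expression per the file headers. The aligner, genome build, normalisation and depth are details not given in the sources used here, so no counting interval is given. The values are not whole numbers, and a precision from depth cannot be stated. The tables hold the same rows, and their values sum to 75675 and 71136. They do not hold every gene looked for, as 33 of 69 mesendoderm and 25 of 67 organizer genes were found. In this text, all genes means the listed genes that passed the filter in use. All 6 genes were matched by symbol. The 5 Ensembl identifiers among them were found in the name table, where those of gsc and fscn1a stand as GSC and FSCN1, and hhex has none.

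Computed here, with Python 3.11.15, numpy 2.4.6 and pandas 2.3.3, were log2 ratios with a pseudocount of 1 for genes with a mean of at least 1, calls at 20% lower or 25% higher, and counts and medians of 12 gene lists. The code was checked on simulated data with a far smaller pseudocount, and with changes planted only in genes with values above those of hhex. That check did not cover the pseudocount of 1 or genes of low value. The 6 genes, the lists and the fold were chosen with earlier results of these data known. Beside the 6 genes, the text names up to 3 genes at each end of each list among those with a mean of at least 5; genes named otherwise are said to be, or carry a count. A gene that this rule names is not reported here. Alternatives were pseudocounts of 0.1 and 5, centring, equal totals, a trimmed mean of M values without weights, other filters and folds of 1.1, 1.5 and 2.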

Additional observations from a re-analysis of the deposited data

How the results depend on the processing

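tbxta (-0.67 to -0.44) and sebox (-0.73 to -0.45) kept their sign and stayed called lower under all 7 alternatives run, and gsc stayed above 0 and between the limits (0.03 to 0.26). hhex (-0.53 to -0.25) kept its sign but was no longer called lower with a pseudocount of 5, and with a mean of at least 5 it was not among the genes. dkk1b (-0.11 to 0.12) and fscn1a (-0.21 to 0.02) took either sign with the scaling. No log2 ratio of the 6 genes moved as far as the SD over genes of like value. That SD is a spread between genes, so it is a wide limit and says little on how stable a ratio is. Of the 6 genes, a 1.1-fold threshold called 1 higher (gsc), a 1.5-fold threshold 1 lower and a 2-fold threshold 0. The median of all genes, 0.11 as deposited, was 0 after centring, 0.002 with the trimmed mean factor and 0.18 with equal totals.

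The Nodal pathway median was -0.0029 with a pseudocount of 5, -0.063 centred, 0.13 with equal totals, -0.090 with the trimmed mean factor, 0.10 unfiltered and -0.11 with a mean of at least 5. Its lower calls numbered 2 with a pseudocount of 0.1, centred and with the trimmed mean factor, and 0 with a pseudocount of 5 and with equal totals. Its higher calls numbered 1 when centred and with the trimmed mean factor. The mesendoderm median was -0.26 with a pseudocount of 5, and its higher calls were 0 with a mean of at least 5. Its lower calls, tbxta and sebox included, numbered 19 as deposited. They numbered 13 with a pseudocount of 5 and 27 both centred and with the trimmed mean factor. The organizer median was -0.23 centred, -0.036 with equal totals and -0.26 with the trimmed mean factor. Its lower calls numbered 2 with a pseudocount of 5, 9 centred, 9 with the trimmed mean factor and 3 with a mean of at least 5, and its higher calls 2 with a pseudocount of 0.1 and with equal totals. For these shifts the cause was not tested. Of 189 values of the other 9 lists under alternatives, 39 moved by over 1.5 times or changed sign. No paired analysis was possible because there is 1 library per condition, which also means that none can be omitted. Depth is not known, and the log2 ratio of hhex, with the lowest values of the 6, moved most with the pseudocount.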
